A study of Auxenochlorella pyrenoidosa with 18 samples.

Results

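The exons described here are first coding exons with only 3 to 30 coding bases in Auxenochlorella pyrenoidosa strain FACHB-9, a unicellular green alga. They were found in the deposited gene models. For a gene with several transcripts, the one with the most coding bases was taken. It had to carry a start codon, a stop codon and at least 2 coding segments, and its first coding segment had to be 1 to 30 bases long. Of 10284 gene models, 8800 were complete in this sense, and 1378 of these (15.7%, 95% Wilson interval 14.9 to 16.4%) began with such an exon. The other 7422, with a first coding exon over 30 bases, served for comparison. The libraries of the series came from cells grown on glucose and urea, sampled at 0, 24 and 72 h of heterotrophic growth, and from cells diluted into light once the glucose was used up, sampled at 2, 8 and 24 h of phototrophic growth. Each of these 6 groups has 3 libraries, and no value of a single library was used here. All results describe predicted structures, with scaffold coordinates as deposited. The version of the assembly was not given in the sources used here, and the files pair the models with no gene names.

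A first coding exon runs from the A of the start codon to the first intron that interrupts the reading frame. In the messenger RNA it is usually joined to untranslated bases upstream, so a coding part of a few bases need not be a short exon. The spliceosome cuts without regard to codons, and the phase of an intron says where it falls. A phase 0 intron lies between codons, a phase 1 intron after the first base of a codon and a phase 2 intron after the second base. For a first coding intron the phase is set by the length of the first coding exon, because reading starts at its first base. A short first coding exon gives the protein its first few amino acids, and in the extreme case the initiator methionine alone. Such exons are hard for gene predictors, since they hold little coding sequence to recognise.

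The shortest first coding exon held 3 bases, the start codon alone, and this was also the most frequent of the lengths up to 60 bases. Start-codon-only exons numbered 118, which is 8.56% of the short first coding exons (95% Wilson interval 7.20 to 10.2%). The other multiples of 3 up to 30 bases were each found in 51 to 83 models, on average 68.9, so that the 3-base class was 1.71 times as frequent as their mean. No model had a first coding exon of 1 or 2 bases, so no start codon was split by an intron in any of the 8800 models (taking 3 counts as the most that a count of 0 allows, the share is at most 0.0341%). All 9471 start codon lines of the annotation span 3 adjoining bases. Whether the predictor could place an intron inside a start codon was not given in the sources used here, so the absence says nothing about the alga itself.

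**Figure D1:**
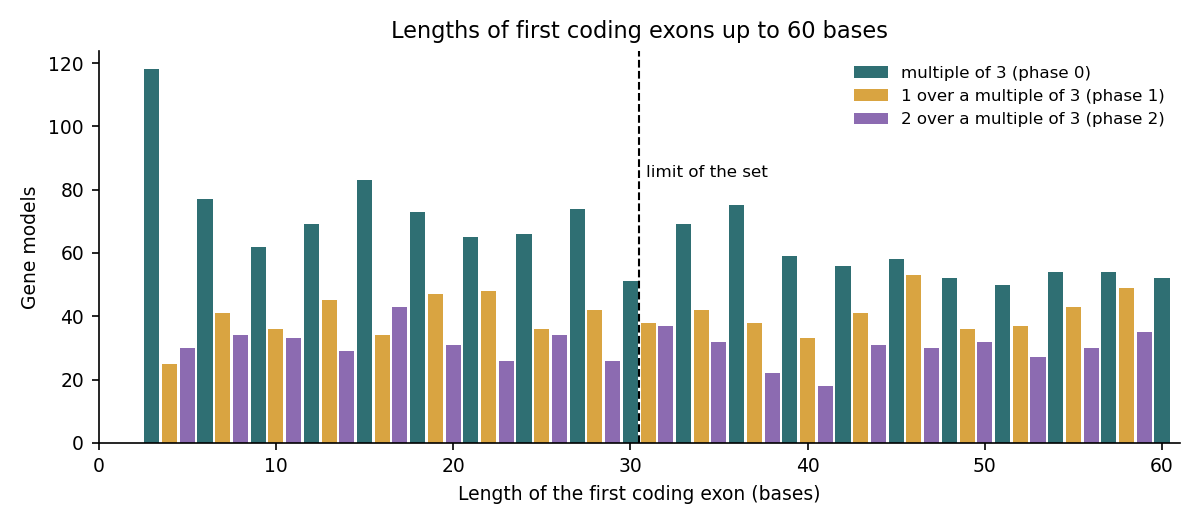
Number of gene models by length of the first coding exon, from 1 to 60 bases, coloured by the remainder after division by 3, which sets the phase of the first coding intron. The dashed line marks the upper limit of 30 bases. The bar at 3 bases holds 118 models, no bar exists at 1 or 2 bases, and bars at multiples of 3 stand above most of their neighbours on both sides of the limit.

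Lengths that keep codons whole were more frequent than the others throughout the range. Between 4 and 30 bases, a length that is a multiple of 3 was found on average in 68.9 models, a length 1 base longer than a multiple of 3 in 39.3 models, and a length 2 bases longer in 31.8 models. The same order held from 31 to 60 bases, with means of 57.9, 41.0 and 29.4 models per length. The least frequent length from 3 to 30 bases was 4 bases, with 25 models, next to the most frequent.

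Coding segments of 30 bases or fewer were found at the start of the coding sequence far more often than elsewhere in it. In the same 8800 models, 6.48% of last coding segments (570 models, 95% Wilson interval 5.98 to 7.01%) and 1.68% of 70232 internal coding exons (1.59 to 1.78%) were of 30 bases or fewer. The second coding exon, next to the exons described here, was that short in 1.84% of the models with at least 3 coding segments. A segment of 3 bases occurred 118 times at the start, 8 times at the end, where it is the stop codon alone, and not once among internal exons. These positions belong to the same models and were not tested against each other. The measures also differ, because a first or last segment is only the coding part of its exon and an internal coding exon is whole. The whole exon with the start codon was of 30 bases or fewer in 87 of 1376 models with a short first coding exon. Among the models with a longer one it could only be 0 of 7369, because their first coding part alone is over 30 bases. In the 1360 models with a short first coding exon and at least 3 segments, the second coding exon had a median of 115 bases, and 1.99% of them had a second short one, against 1.81% of the other models. The last coding segment was also short in 7.04%, against 6.37% of the other models. Neither difference passed the test, with differences of 0.178 percentage points (95% interval -0.695 to 1.05) and 0.666 percentage points (-0.949 to 2.28).

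The 5 start-codon-only models named here have the highest summed exon and intron scores, with ties broken by the shorter first coding intron. The 4 with a score of 1 on both were taken from models tied at that score. The introns of these 4, against a median of 187.5 bases for all start-codon-only models, were therefore short by that choice. The 5 models had 10 to 29 coding segments, against a median of 8 for all start-codon-only models. Model g2030 (scaffold00178, bases 1066116 to 1069760, plus strand) placed its start codon at bases 1066173 to 1066175, after 57 untranslated bases. An intron of 66 bases follows, and then a coding exon of 69 bases, the second of 12 coding segments. Model g1423 (scaffold00128, bases 311193 to 315417, plus strand) had 25 untranslated bases, the start codon at bases 311218 to 311220 and an intron of 73 bases. Its whole first exon therefore measured 28 bases. Model g8364 (scaffold01136, bases 1234399 to 1242573, plus strand) had a shorter first exon of 23 bases and an intron of 82 bases before the second of its 29 coding segments. Model g7108 (scaffold01003, bases 713134 to 718998, plus strand) had an intron of 87 bases and a second coding exon of 34 bases. In these 4 models the first coding exon and its intron both carried a score of 1. Model g3958 (scaffold00514, bases 1453970 to 1464744, minus strand) ranked first with a score of 1.71 on both, a value that no probability can take. Either score was over 1 in only 5 of 1378 models with a short first coding exon and 24 of 7422 others. The mean score of the other coding segments of g3958 was higher, at 1.94. Its start codon, at bases 1462953 to 1462955, lay in an exon of 31 bases, with an intron of 1711 bases in the untranslated part upstream and a first coding intron of 183 bases. It is the only one of the 5 with more than 1 predicted transcript, and both of its transcripts have the start-codon-only exon.

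**Figure D2:**
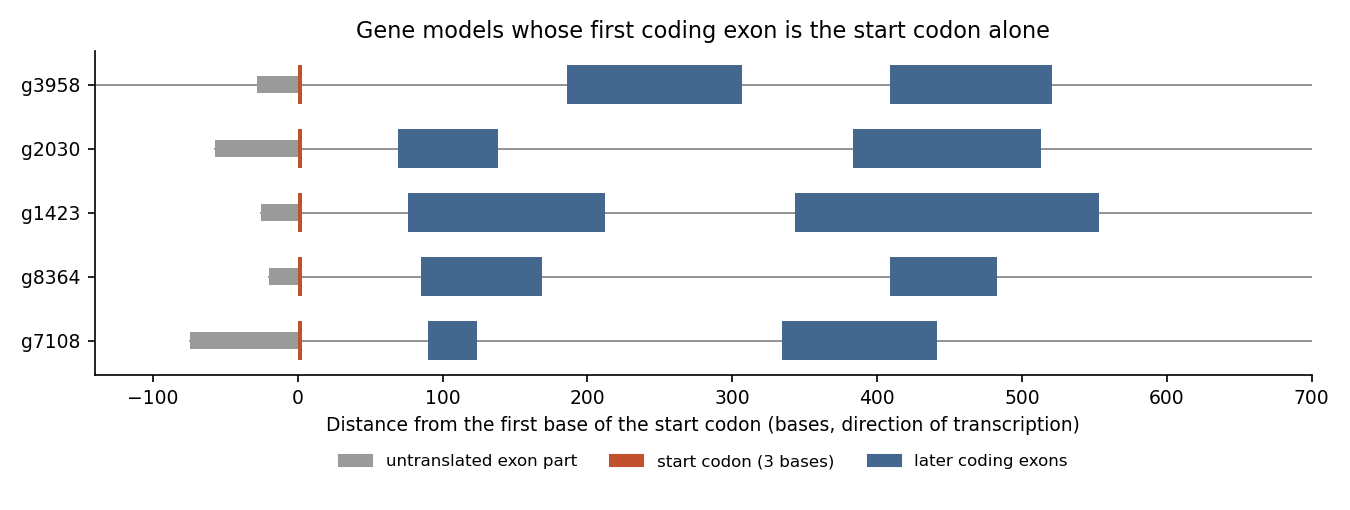
Structures of the 5 gene models with the highest summed scores among start-codon-only first coding exons, drawn to scale from the first base of the start codon in the direction of transcription, from 140 bases before it to 700 bases after it. Grey bars are untranslated exon parts, the narrow bar at 0 is the start codon, blue bars are later coding exons and lines are introns or the model beyond the window. In 4 models the next coding exon begins within 90 bases of the start codon, and in g3958 after an intron of 183 bases. These 4 were picked among models of equal score by the shorter first coding intron, so that short distance was set by the choice.

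The first coding intron lay between codons more often after a short first coding exon than after a longer one, and the start-codon-only exons made most of that difference. Phase 0 was found in 738 of 1378 models (53.6%, 95% Wilson interval 50.9 to 56.2%), against 48.0% (46.8 to 49.1%) of the models with a longer first coding exon. Phase 1 was found in 25.7% against 29.1%, and phase 2 in 20.8% against 22.97%. The difference in phase 0 was 5.59 percentage points (95% interval 3.02 to 8.16, adjusted p = 7.35e-05, n = 1378). This and all tests below are least-squares fits over all models for which the measure exists, 8800 for phase, with standard errors clustered by scaffold and Benjamini-Hochberg adjustment over 18 tests unless another number is given, and n beside them is the number of models with a short first coding exon. Every start-codon-only exon is followed by a phase 0 intron by construction, and from 3 to 30 bases 10 of the 28 possible lengths are multiples of 3. Without these exons phase 0 was found in 49.2% (46.5 to 52.0%, 620 of 1260 models), and the difference of 1.24 percentage points (-1.29 to 3.78) no longer passed the test (adjusted p = 0.464, n = 1260). Against first coding exons of 31 to 90 bases alone it was 3.60 percentage points (0.721 to 6.48, adjusted p = 0.0331, n = 1260) without them and 7.95 percentage points with them. With an upper limit of 15 bases, which gives the 3-base class more weight, the difference was 12.01 percentage points.

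Within the short exons, phase 0 was found in 51.1% of models with 4 to 12 coding bases, in 49.1% with 13 to 21 and in 47.4% with 22 to 30, classes that each hold 3 lengths of every remainder. The 95% Wilson intervals of these classes overlapped. For the next intron the difference did not pass the test. The second coding intron was of phase 0 in 50.5% of models with a short first coding exon and in 51.5% of the others, a difference of -0.956 percentage points (95% interval -3.78 to 1.87, adjusted p = 0.568, n = 1360).

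Very short introns followed short first coding exons more often than longer ones. The first coding intron had a median of 186.5 bases (25th to 75th percentile 134 to 265) after a short first coding exon and 193 bases (149 to 253) after a longer one, with a wider middle range. Introns under 120 bases made up 18.4% (254 of 1378, 95% Wilson interval 16.5 to 20.6%) against 10.01% (9.35 to 10.7%). Introns under 80 bases made up 3.27% against 0.512%, and introns of 400 bases and over 7.47% against 5.23%. The middle range of 120 to under 240 bases held 50.4% against 60.4%. The share under 120 bases was higher by 8.42 percentage points (95% interval 6.32 to 10.5, adjusted p = 1.57e-12 over 23 tests, n = 1378). That test was chosen after the data had been seen, and the difference was 4.10 percentage points (1.47 to 6.74, adjusted p = 0.00596, n = 1378) against first coding exons of 31 to 90 bases.

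The share of introns under 120 bases changed gradually with the length of the exon before them. It was 19.5% after start-codon-only exons, 17.4% at 4 to 12 bases, 19.6% at 13 to 21 bases and 17.9% at 22 to 30 bases. Beyond the limit it was 16.1% at 31 to 60 bases, 12.5% at 61 to 90, 10.6% at 91 to 150, 7.37% above that up to 300 and 2.43% over 300 bases. The 4 short classes lay close together, within each other's 95% Wilson intervals, and no step was seen at 30 bases.

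**Figure D3:**
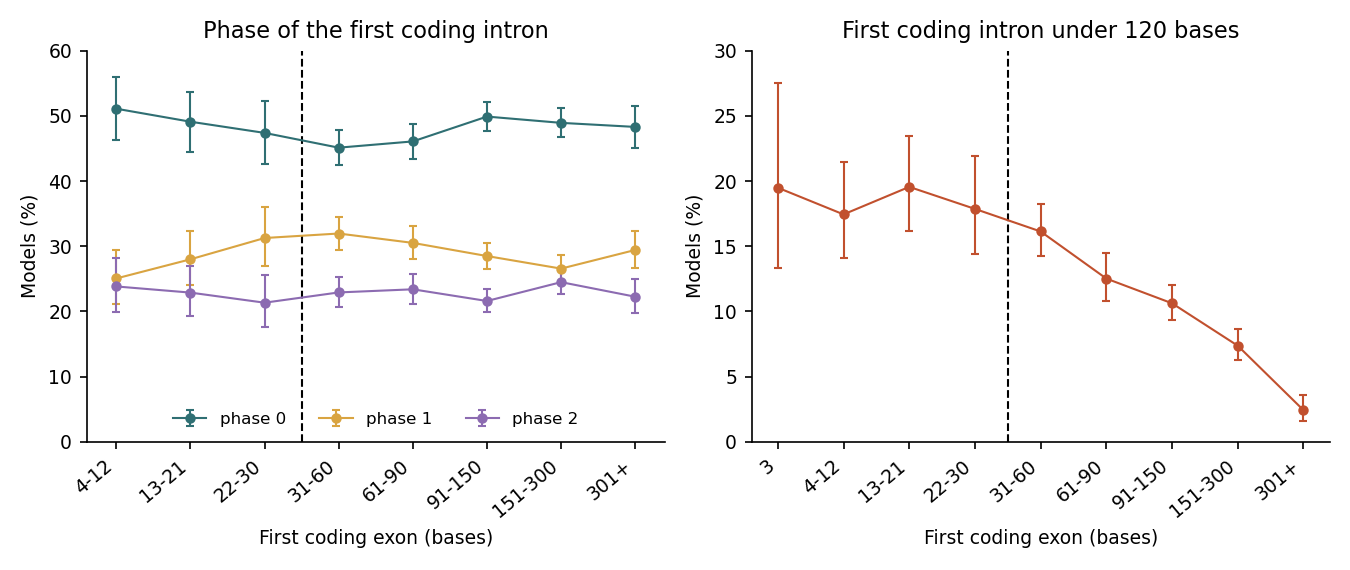
Left, share of models whose first coding intron is of phase 0, 1 or 2, by length of the first coding exon from 4 bases up. Right, share of models whose first coding intron is under 120 bases, by length of the first coding exon from 3 bases up. Points are shares and bars 95% Wilson intervals, and the dashed line marks the limit of 30 bases. The right panel falls from 16.1% at 31 to 60 bases to 2.43% over 300 bases.

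By the geometric mean of its length the first coding intron was 0.958 times as long after a short first coding exon as after a longer one (95% interval 0.929 to 0.987, adjusted p = 0.0102, n = 1378), a log2 difference of -0.06. Against first coding exons of 31 to 90 bases the log2 difference was -0.014 and did not pass the test (adjusted p = 0.838, n = 1378). It did not pass either with an upper limit of 15 bases (adjusted p = 0.0503, n = 682) or with first coding exons scored at least 0.9 (adjusted p = 0.0531, n = 763). Set against the later introns of the same model, the first coding intron was shorter than their mean log2 length in 64.6% of 1288 models with a short first coding exon. The share was 64.8% of 6584 other models. The log2 difference between first and later introns was -0.25 ± 0.81 (SD, n = 1288) and -0.21 ± 0.67 (SD, n = 6584), and the 2 groups differed by -0.04 (95% interval -0.09 to 0.01, adjusted p = 0.183).

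The longest first coding introns after a short exon were single cases. Model g7661 (scaffold01012, bases 1988420 to 1996653, minus strand) had a first coding exon of 29 bases and then an intron of 1774 bases, between bases 1994818 and 1996591. It was the only intron of at least 1000 bases after a short first coding exon (1 of 1378, 0.0726%), against 33 of 7422 (0.445%) after a longer one. The next were an intron of 983 bases in g7371 (scaffold01012, bases 442304 to 445630, plus strand), also after 29 coding bases, and one of 973 bases in g1659 (scaffold00132, bases 216220 to 224828, minus strand), after 7 coding bases. The scores of these introns were 0.93, 0.36 and 0.89.

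**Figure D4:**
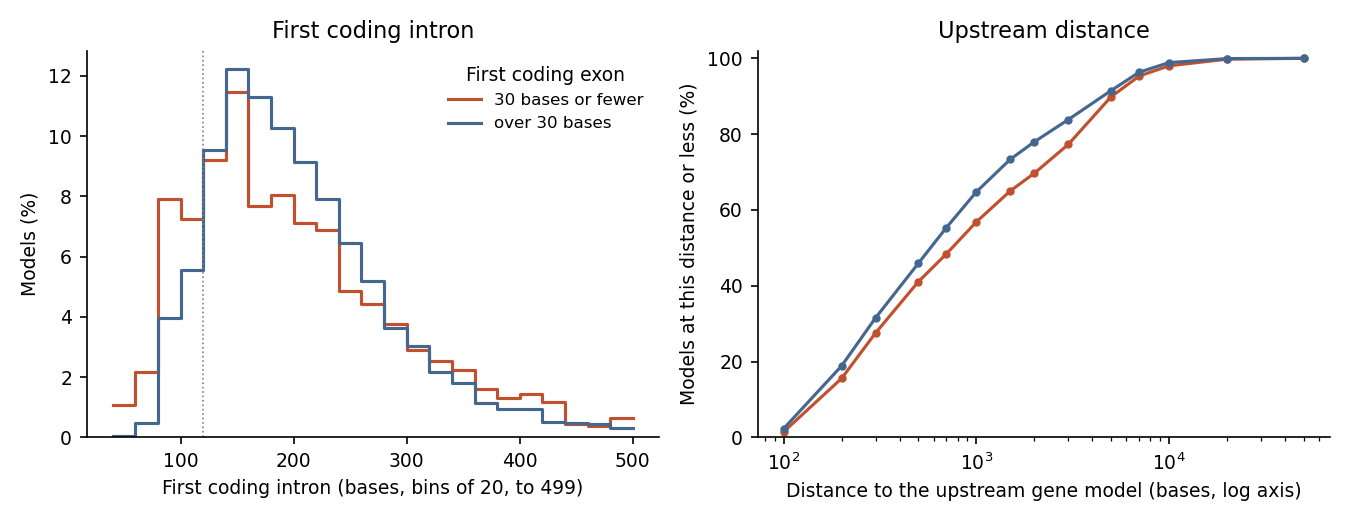
Left, lengths of the first coding intron in bins of 20 bases below 500 bases, as a share of all models with a first coding exon of 30 bases or fewer and of all with a longer one. The dotted line marks 120 bases. Right, share of models whose upstream neighbour lies at a given distance or less, on a logarithmic axis. The red line stands above the blue one under 120 bases on the left, and at 3000 bases it stands lower on the right.

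Most short first coding exons were not short exons, because untranslated bases precede them in the same exon. A transcription start was predicted in 1376 of the 1378 models. In these the exon that holds the start codon had a median of 79 bases (25th to 75th percentile 52 to 117.25), and its untranslated bases had a median of 62. In the models with a longer first coding exon it had a median of 199 bases, and its untranslated bases a median of 54. The whole exon includes the coding part that defined the set, so its shorter length was set by the rule, and its untranslated bases were not fewer. An exon of 30 bases or fewer in all was found in 87 of the 1376 models (6.32%, 95% Wilson interval 5.15 to 7.73%). Among start-codon-only models the share was 18.6% (22 of 118, 12.6 to 26.6%).

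The length of the untranslated part did not pass the test of a difference. Its exonic length had a median of 76 bases (25th to 75th percentile 43 to 131.25) with a short first coding exon and 73 bases (41 to 134) with a longer one. The ratio of the geometric means of (bases + 1) was 1.03 (95% interval 0.986 to 1.08, adjusted p = 0.257, n = 1376). From the predicted start of the transcript to the first coding intron, exons spanned a median of 93 bases, against 226 bases in the other models, a difference set by the rule because the span includes the first coding exon.

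Introns before the start codon were less frequent when the first coding exon was short. They were found in 296 of 1376 models (21.5%, 95% Wilson interval 19.4 to 23.8%), against 1914 of 7369 (25.97%, 24.99 to 26.99%). The difference was -4.46 percentage points (95% interval -6.80 to -2.12, adjusted p = 0.000556, n = 1376). With first coding introns scored at least 0.9 it was -3.20 percentage points and did not pass the test (adjusted p = 0.0816, n = 882). The share was 20.3% in start-codon-only models, 20.99% at 4 to 12 bases, 20.2% at 13 to 21 and 23.8% at 22 to 30 bases, with overlapping intervals.

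Where an intron precedes the start codon, the exon with the start codon lies between 2 introns. In 59 of those 296 models (19.9%, 95% Wilson interval 15.8 to 24.9%) this whole exon was of 30 bases or fewer, which makes it a microexon, a very short exon with an intron on either side. The other 28 of the 87 exons of that size were the first exon of their transcript. Of the 4 models with such exons under 10 bases, g8473, g4092, g4590 and g8004, which were named after their values were seen, the last 2 were tied at 9 bases. In g8473 (scaffold01168, bases 412320 to 414924, plus strand) an exon of 6 bases, 3 untranslated and 3 coding, lay between introns of 123 and 148 bases, with scores of 0.99 for the coding part and 0.94 for the intron after it. In g4092 (scaffold00514, bases 2268534 to 2272464, minus strand) the exon had 8 bases, of which 5 were coding, with scores of 1 and 0.97. In g4590 (scaffold00629, bases 44257 to 48970, minus strand) it had 9 bases, of which 3 were coding, with scores of 0.93 and 0.76. In g8004 (scaffold01082, bases 84396 to 87340, plus strand) all 9 bases were coding, with scores of 0.72 and 0.86.

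The longest untranslated parts before a short first coding exon reached 651 bases in g2709 (scaffold00306, bases 111746 to 120990, plus strand), interrupted by 5 introns before a coding exon of 18 bases. Model g5779 (scaffold00825, bases 581815 to 590208, minus strand) had 616 untranslated bases and 4 introns, the last of them 4323 bases long. Model g4778 (scaffold00629, bases 1130174 to 1136241, minus strand) had 599 untranslated bases and 4 introns. Both of the latter had a first coding exon of 21 bases.

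Models with a short first coding exon began farther from their upstream neighbour. The distance from the predicted gene start to the next model upstream had a median of 745 bases (25th to 75th percentile 275 to 2696, n = 1369), against 585 bases (245 to 1645.75, n = 7330). By the geometric mean of (distance + 1) it was 1.24 times as long (95% interval 1.15 to 1.33, adjusted p = 1.01e-07, n = 1369). Neighbours at least 3000 bases away made up 22.7% against 16.2%, and neighbours within 200 bases 15.5% against 18.8%. The former share was higher by 6.55 percentage points (95% interval 4.02 to 9.08, adjusted p = 3.56e-06 over 23 tests, n = 1369, chosen after the data had been seen). By length class, the median distance was 545 bases in the start-codon-only models, 822.5 at 4 to 12 bases, 805 at 13 to 21 and 705 at 22 to 30 bases. The start-codon-only models thus had a lower median than the other short classes and than the 585 bases of the models with a longer first coding exon, and yet 27.1% of them (95% Wilson interval 19.9 to 35.8%) had a neighbour at least 3000 bases away.

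The longer distance was found with both orientations of the neighbour. Upstream neighbours lay on the opposite strand, start to start, in 62.5% of models with a short first coding exon and in 64.4% of the others, a difference of -1.88 percentage points (95% interval -4.27 to 0.511, adjusted p = 0.183, n = 1369). At such divergent pairs the median distance was 495 against 465 bases, a ratio of 1.15 of the geometric means of (distance + 1) (1.06 to 1.24, adjusted p = 0.00116 over 23 tests, n = 856). At neighbours on the same strand it was 1491 against 836 bases, a ratio of 1.36 (1.23 to 1.51, adjusted p = 2.17e-07 over 23 tests, n = 513). Both tests were chosen after the data had been seen. The divergent one did not pass with first coding introns scored at least 0.9 (log2 difference 0.14, adjusted p = 0.0853, n = 560). Whether the 2 orientations differ from each other was not tested.

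On average the predictor scored short first coding exons and their introns lower than longer ones, though exon scores were not lower than in every longer class. AUGUSTUS, the gene finder named in the files, wrote a score for each coding segment and intron, and the authors deposited it without a description. The first coding exon had a mean score of 0.834 ± 0.214 (SD, n = 1378) when short and 0.877 ± 0.195 (SD, n = 7422) when longer. The difference was -0.042 (95% interval -0.053 to -0.031, adjusted p = 2.06e-11, n = 1378). Relative to the mean of the other coding segments of the same model the score was lower by 0.112 ± 0.195 (SD) in the former and by 0.075 ± 0.185 (SD) in the latter. The difference of -0.038 (-0.048 to -0.028) gave an adjusted p = 2.06e-11 (n = 1378). For the first coding intron the gap was wider, with means of 0.863 ± 0.213 (SD) and 0.941 ± 0.154 (SD), a difference of -0.078 (-0.089 to -0.067, adjusted p = 2.70e-30, n = 1378). Low scores, under 0.5, were given to 9.22% of the introns after a short first coding exon and to 3.25% of the others.

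High scores were nevertheless common. Both the short first coding exon and its intron were scored at least 0.9 in 730 of 1378 models (53.0%, 95% Wilson interval 50.3 to 55.6%), against 64.5% (63.4 to 65.6%) of the models with a longer first coding exon. Among start-codon-only exons the share was 54.2% (64 of 118, 45.3 to 63.0%). The intron alone was scored at least 0.9 in 65.3% of start-codon-only models, 64.1% at 4 to 12 bases, 60.4% at 13 to 21 and 67.7% at 22 to 30 bases. Beyond the limit that share was 74.0% at 31 to 60 bases and 82.3% at 61 to 90 bases. Exon and intron score were within 0.05 of each other in 77.7% of models with a short first coding exon and in 69.9% of the others. Among models whose first coding intron was scored at least 0.9, the order of the exon scores turned, and short first coding exons were scored higher by 0.021 (95% interval 0.011 to 0.031, adjusted p = 0.000657, n = 883).

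**Figure D5:**
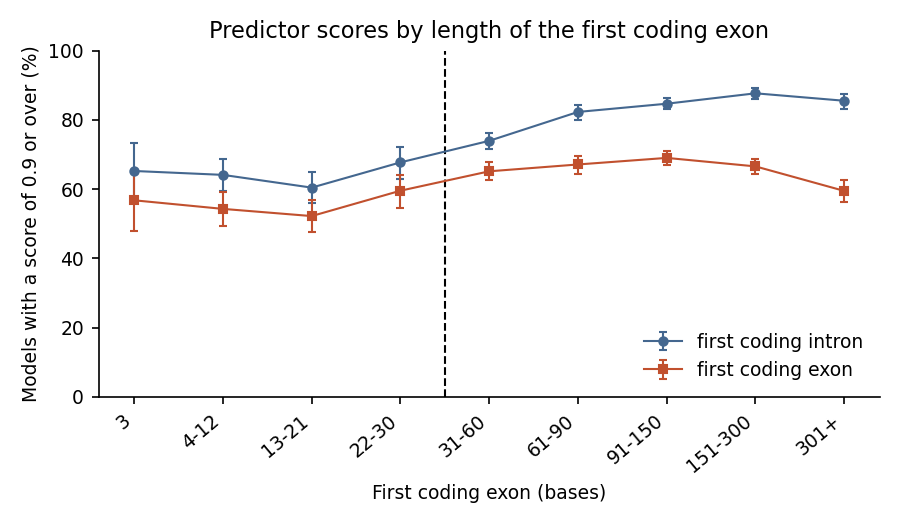
Share of models whose first coding exon (squares) or first coding intron (circles) has a score of at least 0.9, by length of the first coding exon in bases. Bars are 95% Wilson intervals and the dashed line marks the limit of 30 bases. Intron scores lie between 60.4% and 67.7% in the 4 short classes and reach 87.7% above 150 and up to 300 bases.

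Where a score filter was applied, some of the differences above still passed the test in the better-scored models alone and others did not. A filter leaves fewer models, so a lost pass does not show that a difference is absent. Among first coding introns scored at least 0.9, the share under 120 bases was still higher after short first coding exons, by 7.12 percentage points (95% interval 5.003 to 9.243, adjusted p = 4.88e-09, n = 883). The upstream distance also stayed longer, with a log2 difference of 0.22 (adjusted p = 0.00475, n = 877). Under the same filter, introns before the start codon (adjusted p = 0.0816, n = 882) and the divergent distance (adjusted p = 0.0853, n = 560) did not pass. Their differences kept their direction, at -3.20 percentage points (95% interval -6.27 to -0.136) and 0.14 on the log2 scale (-0.003 to 0.274). These intervals are not adjusted for the number of tests. With first coding exons scored at least 0.9, the length of the first coding intron did not pass (adjusted p = 0.0531, n = 763), at a log2 difference of -0.054. With first coding introns scored at least 0.9 it passed, at -0.067 (adjusted p = 0.00666, n = 883).

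The rest of the coding sequence was slightly larger in models with a short first coding exon. Their coding segments numbered 8 at the median (25th to 75th percentile 6 to 13), against 8 (5 to 12), and were 1.08 times as many by the geometric mean (95% interval 1.04 to 1.11, adjusted p = 5.99e-05, n = 1378). The coding bases after the first segment had a median of 1040 against 987.5 and were 1.06 times as many (1.02 to 1.11, adjusted p = 0.00369, n = 1378). The number of segments did not pass against first coding exons of 31 to 90 bases (adjusted p = 0.312, n = 1378), with an upper limit of 15 bases (0.0503) or with first coding exons scored at least 0.9 (0.0628). The coding length after the first segment did not pass under the last 2 of these, or with first coding introns scored at least 0.9. Once the number of segments was held equal, its log2 difference was -0.018 (95% interval -0.049 to 0.013). That value did not pass the test in either direction (adjusted p = 0.356, n = 1378). The models with the most coding segments were g4716 with 54 (scaffold00629, bases 765650 to 783874, plus strand), g8121 with 49 (scaffold01094, bases 393222 to 411676, plus strand) and g2004 with 46 (scaffold00178, bases 905710 to 922333, minus strand). Their first coding exons held 15, 20 and 5 bases.

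Other transcripts of the same gene mostly kept the short first coding exon. More than 1 transcript was predicted for 25 of the 1378 genes (1.81%), against 1.77% of the others (difference 0.049 percentage points, 95% interval -0.558 to 0.656). These 25 genes had 26 further transcripts, of which 22 began with the same first coding exon at the same position. The other 4, named after their values were seen, started translation at another position and had a longer first coding exon. It held 65 bases in g1721 in place of 16, 203 in g4157 in place of 3, 120 in g4777 in place of 15 and 86 in g4991 in place of 24. Conversely, 12 of 133 further transcripts of genes with a longer first coding exon began with a short one. These 133 were limited to transcripts with a start codon and at least 2 coding segments, a limit not set for the 26. How many of the 133 kept the first coding exon of the chosen transcript was not counted.

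Short first coding exons were spread over the assembly. They lay on 74 of the 177 scaffolds with a complete model, 696 of them (50.5%) on the plus strand. The scaffolds with the highest counts were scaffold00366 (103 of 670 models, which span bases 2172 to 3904654), scaffold01012 (89 of 544, bases 4776 to 2954257) and scaffold00012 (78 of 470, bases 5536 to 2794055). On the 27 scaffolds with at least 100 complete models their share ranged from 10.6% on scaffold01003 to 20.7% on scaffold00066, with a median of 15.4%. The upstream neighbour of a model with a short first coding exon also had one in 217 of 1369 cases (15.9%, 95% Wilson interval 14.0 to 17.9%), against 15.3% for the other models. In 1169 models with at least 5 coding segments, a single pair shared the lengths of the first 4 segments. These were g5295 and g5298 on scaffold00734, with 21, 50, 158 and 35 bases and first coding introns of 126 and 128 bases, and they were named after their values were seen.

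Models just inside and just outside the limit had close values. Phase 0 was found in 47.5% of the 263 models with 25 to 30 coding bases and in 49.1% of the 293 models with 31 to 36. First coding introns under 120 bases made up 18.6% and 16.4%, and introns before the start codon were found in 23.2% and 20.8%. The upstream distance had a median of 690 and 624.5 bases, and the first coding intron was scored at least 0.9 in 68.1% and 70.0%. The first coding exon was scored at least 0.9 in 60.1% and 60.4%. A further 65 gene models with a first coding segment of 30 bases or fewer were left out for want of a start or stop codon line, 56 of them with a start but no stop codon.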

How the data were processed

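The file used is a set of gene models that names AUGUSTUS as its source, per the file's own lines. It holds feature positions, phases and a score for each gene, transcript, coding segment and intron, all deposited by the authors with no account of their scale. The version and settings of AUGUSTUS and its evidence were not given in the sources used here. Per the submitters' processing notes, TopHat 1.3.3 and Cufflinks were used, with no role stated. Depth per library is unknown here, and whether reads shaped the models is not given.

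Models were read with Python 3.11.15, NumPy 2.4.6 and pandas 2.3.3. Introns were the gaps between coding segments. Each comparison was a least-squares fit on those complete models with at least 2 coding segments that have the measure, with an indicator for a first coding exon of 30 bases or fewer. Standard errors were clustered by scaffold, tests were two-sided with SciPy 1.17.1, and Benjamini-Hochberg adjusted p under 0.05 passed. The code was tested on simulated data. Lengths and distances were compared as log2, with 1 base added where 0 can occur. Shares have Wilson intervals, which count models as independent. Neither interval covers error of assembly or prediction. No genome sequence was used, so no start codon or splice site is shown.

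The set and its measures were chosen with earlier results of these data known. Named models are the 5 best-scored with 3 coding bases (ties by the shorter intron), the 3 with the longest first coding intron, the 3 with the longest 5' untranslated part, the 3 with the most coding segments and the 3 scaffolds with the most members. The rule's 5 models with 1 or 2 coding bases do not exist. Of 13 alternatives, 3 were chosen after seeing the data, and so were 5 of the 23 tests.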

Additional observations from a re-analysis of the deposited data

How the results depend on the processing

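Of 216 values of the 18 planned tests under 13 alternatives, 190 changed neither direction nor call, 13 lost and 2 gained a pass, and 11 turned. Lengths and counts are log2 differences and shares are percentage points, each short minus longer first coding exons. Without 3-base exons the phase 0 difference was 1.24. With an upper limit of 15 bases, the first intron gave -0.059, coding segments 0.080, remaining coding length 0.069, divergent neighbours 0.247 and more than 1 transcript -0.152. With a limit of 45 bases, the second coding exon gave -0.066 and gained a pass. Against 31 to 90 bases, the values were -0.014 for the first intron, 0.035 for coding segments, 0.059 for the second coding exon, -0.206 for short second exons, 0.022 for divergent neighbours and -0.021 for more than 1 transcript. With first coding exons scored at least 0.9, the first intron gave -0.054, coding segments 0.063, remaining coding length 0.0044 and the exon score -0.0019, and the share of short first coding exons was 13.4%. With first introns scored at least 0.9, the values were -0.053 for first against later introns (gained), -3.20 for 5' introns, 0.022 for remaining coding length, 0.021 for the exon score, 0.015 against the model's other segments and -0.0043 for the intron score; both score filters narrow the score they filter. With coding segments as covariate, remaining coding length gave -0.018 and more than 1 transcript -0.040, and on scaffolds of at least 100 kb the latter gave -0.020. Except where a filter acts on the value itself, the cause was not tested. The upstream distance stayed between 0.22 and 0.35 in all 12 alternatives run for it. Of 29 values of the 5 added tests, 27 changed neither direction nor call and 2 lost the pass: the divergent distance with first introns scored at least 0.9 (0.14) and low intron scores with first coding exons scored at least 0.9 (0.079). No paired analysis was possible because no value of any library enters these results.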
